A study of Homo sapiens with 2 samples.

Results

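The heme and iron handling genes described here are 10 genes chosen by symbol: ALAS1, CPOX and FECH of heme synthesis, HMOX1, HMOX2, BLVRA and BLVRB of heme degradation, and TFRC, FTH1 and FTL of iron uptake and storage. The platform annotation names a probe set for 9 of them, 1 each, among 17687 genes in all, and FTH1, the ferritin heavy chain, has no value here. They were measured in 2 lines derived from MKN1 cells, which come from a human gastric cancer and are an established line. The first overexpressed RHOA Y42C and the second RHOA wild-type, in both cases after transfection of a pBABE vector and selection with puromycin. RHOA is a small GTPase that acts on actin contractility, and Y42C replaces a tyrosine by a cysteine. The labels do not say whether the selected cells were kept as a pool or as a clone, parental cells and cells with the empty vector were not analysed here, and both lines carry an added RHOA. Each line gave 1 array of total RNA, so no value below has a replicate error and no difference has a test. BLVRA entered the set for its difference between these 2 arrays, which is therefore given as a description.

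Heme is the iron-porphyrin group of cytochromes, catalase and many other enzymes. Its synthesis starts and ends in mitochondria: ALAS1 makes the first precursor in most cells, CPOX oxidises a late porphyrin, and FECH inserts the iron. Heme oxygenases then open the ring and release iron, carbon monoxide and biliverdin, which biliverdin reductase turns into bilirubin. Cells take up iron through the transferrin receptor TFRC and store it in ferritin, whose chains are FTH1 and FTL. The RNAs of TFRC and of both ferritin chains carry iron-responsive elements, hairpins that iron regulatory proteins bind when iron is low.

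The promoters of both biliverdin reductase genes are shown because one of these genes differed widely between the arrays and the other little. RefSeq sequences of GRCh38.p14 give the 250 bases before a start site. For BLVRA this is chr7:43758430-43758679 on the plus strand, which lies inside the annotated span of the gene, upstream of the start site used, because that span opens further upstream. For BLVRB it is chr19:40465746-40465995 on the minus strand, directly before the gene. Capitals mark GC boxes (GGGCGG) and the CCAAT box (CCAAT), searched on both strands, and these motifs do not overlap each other here.
BLVRA: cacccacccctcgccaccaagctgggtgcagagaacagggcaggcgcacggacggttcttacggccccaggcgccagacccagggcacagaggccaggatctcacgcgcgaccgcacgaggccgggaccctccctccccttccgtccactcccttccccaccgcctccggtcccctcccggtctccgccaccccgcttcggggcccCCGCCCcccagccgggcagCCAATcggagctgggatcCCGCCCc
BLVRB: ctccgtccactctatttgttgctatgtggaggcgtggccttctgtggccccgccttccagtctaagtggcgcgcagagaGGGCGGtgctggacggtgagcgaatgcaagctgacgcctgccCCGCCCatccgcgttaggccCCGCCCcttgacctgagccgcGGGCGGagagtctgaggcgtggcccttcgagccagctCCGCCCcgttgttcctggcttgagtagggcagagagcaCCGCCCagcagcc
BLVRA has 2 GC boxes and 1 CCAAT box in this stretch, and BLVRB has 6 GC boxes and no match to CCAAT. Windows of 300 bases around the start site were found for 8 of the 10 genes, 9 windows in all with a further one for HMOX2. Each of the 8 genes has a window with a GC box, but the further HMOX2 window has none. Counted by window and not by gene, 45.0% of 35116 such windows of all genes hold a GC box. A CCAAT box stands in 34.6% of them. These matches describe the letters and not binding.

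Values are signal on the log2 scale as deposited, taken as log2 because of their range. The expression minimum of an array was the 95th percentile of its signal over 349 olfactory receptor genes, whose products belong to the nasal epithelium: 5.14 in the RHOA Y42C array and 5.17 in the RHOA wild-type array. Genes that reached the minimum of either array were retained, which left 11802 genes and 8 of the 9 measured heme and iron genes. Differences are RHOA Y42C minus RHOA wild-type. Signals of different probe sets are not set against each other, since each probe set has its own brightness. A bulk array cannot tell fewer cells with a transcript from less transcript per cell.

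Of the 8 genes above the minimum, 1 was at least 2-fold lower in the RHOA Y42C array, BLVRA, and 0 were at least 2-fold higher. Over all genes above the minimum 9.80% were at least 2-fold lower and 7.46% at least 2-fold higher, so counts of 1 and 0 among 8 lie near the background, and the lower one was fixed by the choice of BLVRA. At 1.5-fold CPOX and FECH joined BLVRA, so that 3 of the 8 were lower and 0 higher, against 23.4% and 17.8% of all genes. At 4-fold BLVRA was the 1 lower gene of the 8, where 0.585% of all genes were lower. At both thresholds BLVRA counts as lower through its choice, so the lower counts cannot be read against the shares of all genes. At 4-fold 0 of the 8 were higher, against 118 of the 11802. Of the 8, 5 were lower to any extent, the chosen BLVRA among them, and 3 higher, where 54.2% of all genes above the minimum were lower. The 8 had a median difference of -0.28, against -0.07 over all genes above the minimum. The genes in order of their difference were BLVRA, CPOX, FECH, BLVRB, HMOX2, ALAS1, TFRC and FTL, the last 3 being higher. Between BLVRB and HMOX2, and among ALAS1, TFRC and FTL, the steps in this order are 0.15 or less, and no replicate shows whether such steps would recur.

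**Figure D1:**
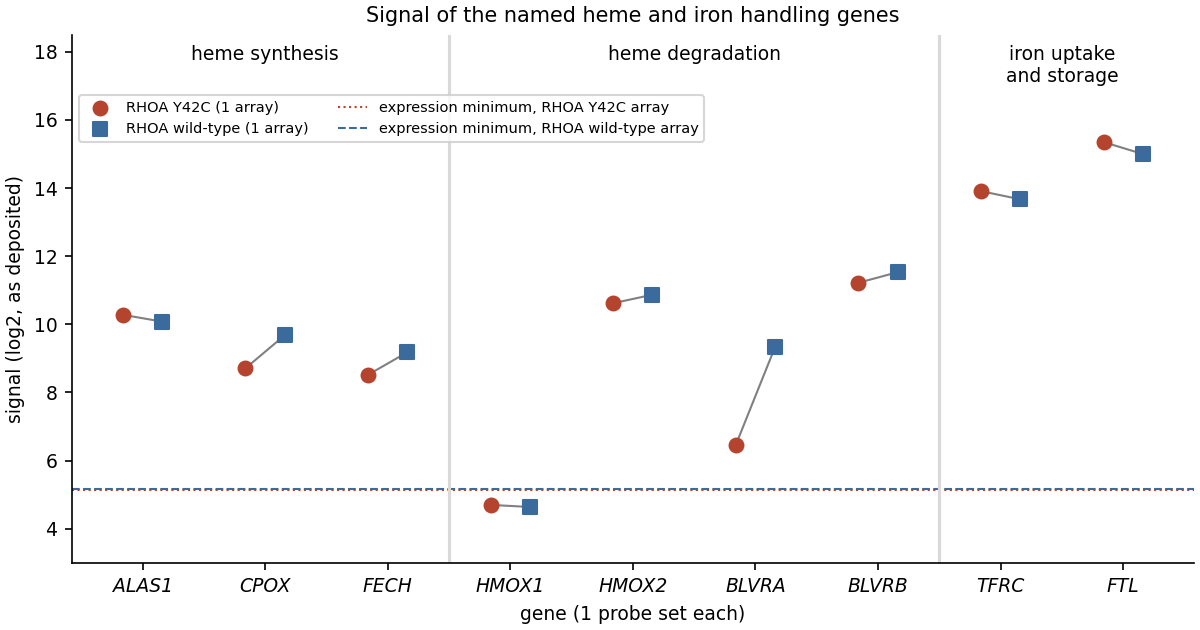
Signal (log2, as deposited) of the 9 measured heme and iron genes, with the RHOA Y42C array as circles to the left and the RHOA wild-type array as squares to the right of each gene, 1 array each. The dotted and dashed lines are the expression minimums of the arrays (5.14 for RHOA Y42C and 5.17 for RHOA wild-type). BLVRA has the widest gap, and both HMOX1 values lie under the lines.

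BLVRA, the biliverdin reductase that makes the bilirubin of adult bile, had a signal of 6.46 in the RHOA Y42C array and 9.33 in the RHOA wild-type array. The difference of -2.87 is a 7.31-fold lower signal with RHOA Y42C. Both values lie above their minimums, so the fold is measured on both sides and is not a bound. In rank, BLVRA was the seventh most negative of the 11802 genes. The 590 genes of like mean signal, 1 of 20 equal bins, had a median difference of -0.14 and a scaled median absolute deviation of 0.675, and BLVRA lay 4.05 such deviations below that median.

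The other enzymes of heme degradation differed far less. BLVRB, a second reductase that acts on the fetal biliverdin isomer and on flavins, had 11.22 in the RHOA Y42C array and 11.53 in the RHOA wild-type array, a difference of -0.31. HMOX2, the constitutive heme oxygenase, had 10.62 with RHOA Y42C and 10.87 with RHOA wild-type, a difference of -0.25. The genes of both enzymes were thus slightly lower in the RHOA Y42C array, each by less than 1 scaled deviation of the genes of like signal. HMOX1, the heme oxygenase that heme and oxidative stress induce, had 4.70 with RHOA Y42C and 4.64 with RHOA wild-type. Both lie below the minimums, so no fold is given and a difference in this gene was not measurable here. Of the 3 genes of heme degradation above the minimum, BLVRA alone was at least 2-fold apart. Over all genes 9.80% were at least 2-fold lower and 7.46% at least 2-fold higher, and BLVRA was chosen for its difference.

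**Figure D2:**
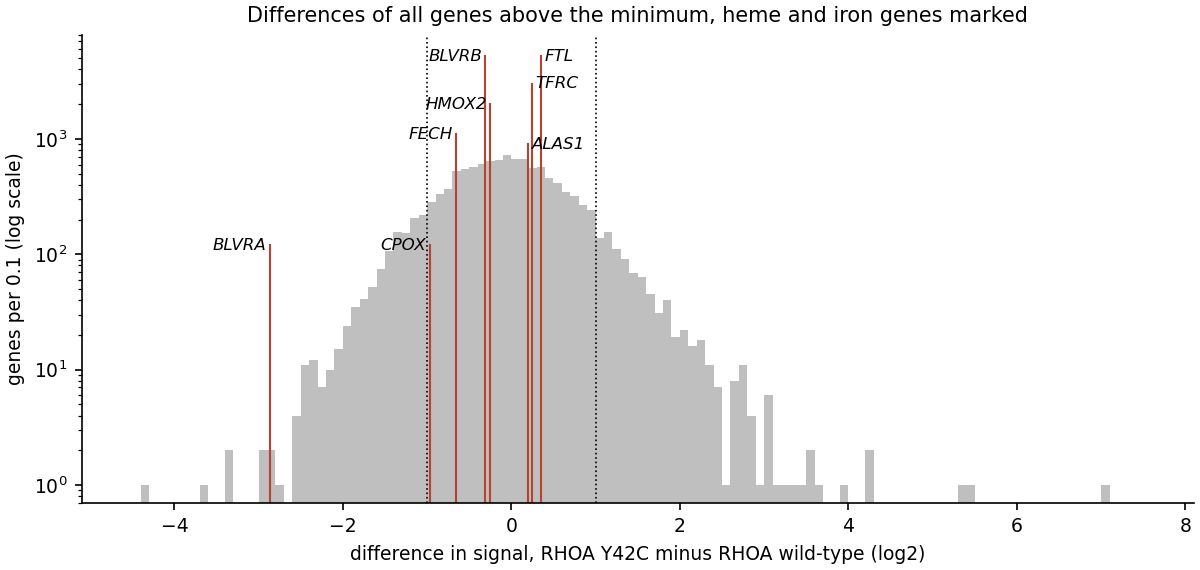
Number of genes per 0.1 step of difference (RHOA Y42C minus RHOA wild-type, log2; vertical axis on a log scale) for the 11802 genes above the minimum, with the 8 heme and iron genes above it as vertical lines whose heights only hold the names apart. Dotted lines mark 2-fold, and BLVRA at -2.87 lies in the sparse left tail while the other 7 lie between them.

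In heme synthesis the members differed in both directions. CPOX, coproporphyrinogen oxidase, had 8.71 in the RHOA Y42C array and 9.68 in the RHOA wild-type array, so it was 1.96-fold lower (-0.97), just short of 2-fold. FECH, ferrochelatase, had 8.52 with RHOA Y42C and 9.18 with RHOA wild-type, 1.58-fold lower (-0.66). ALAS1, the housekeeping 5-aminolevulinate synthase and the regulated first step, had 10.28 with RHOA Y42C and 10.08 with RHOA wild-type, a difference of 0.20. In scaled deviations from the median of genes of like signal, CPOX lay at -1.09, FECH at -0.69 and ALAS1 at 0.41. CPOX and FECH were thus lower and ALAS1 slightly higher in the RHOA Y42C array, FECH and ALAS1 by less than 1 such deviation.

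The full pathway list of 9 heme synthesis enzymes, members included, had 8 named and 6 above the minimum. Of these 6, 1 was at least 2-fold lower and 0 at least 2-fold higher, near the 9.80% and 7.46% of all genes, with a median of -0.61. The gene past 2-fold was UROD, uroporphyrinogen decarboxylase, with 10.19 in the RHOA Y42C array and 11.32 in the RHOA wild-type array (2.19-fold lower). PPOX, the step between CPOX and FECH, had 5.56 with RHOA Y42C and 6.11 with RHOA wild-type. UROS, the step before UROD, stood at the other end with 10.71 with RHOA Y42C and 9.78 with RHOA wild-type, 1.91-fold higher. The 4 last enzymes in pathway order, UROD, CPOX, PPOX and FECH, were all lower in the RHOA Y42C array, by 0.55 to 1.13 on the log2 scale. Of all genes above the minimum 54.2% were lower to any extent. From the median of genes of like signal the 4 enzymes lay at -1.48, -1.09, -0.93 and -0.69 scaled deviations, and UROS at 1.42. ALAD and the erythroid form ALAS2 were below the minimum in both arrays.

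ALAS1 is a known target of NRF1, a transcription factor of nuclear genes for mitochondrial proteins, and short stretches at its start site are shown for that reason, with matches to TGCGCA, the core of the NRF1 motif, in capitals (the core reads the same on both strands). The first, chr3:52198065-52198094, spans the start site, and the second, chr3:52198099-52198118, lies in the first transcribed bases; both are on the plus strand, from RefSeq on GRCh38.p14.
ALAS1, across the start: ctacgcggcgcgccTGCGCAgaagaaggca
ALAS1, after the start: ccaaggcgcaTGCGCAgcgg
This core stands in 8.24% of all windows and in ALAS1 alone among the 8 genes with a window. NRF1 itself had 7.55 in the RHOA Y42C array and 8.33 in the RHOA wild-type array (-0.78). Both NRF1 and ALAS1 lay less than 1 scaled deviation from the median of genes of like signal. NRF1 protein and its activity were not measured, and the part of NRF1 in the ALAS1 signal was not tested.

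The iron genes differed little. TFRC, which carries transferrin-bound iron into the cell, had 13.91 in the RHOA Y42C array and 13.67 in the RHOA wild-type array, a difference of 0.24. FTL, the ferritin light chain, had 15.35 with RHOA Y42C and 15.00 with RHOA wild-type, a difference of 0.35. Both were slightly higher with RHOA Y42C, by less than 1 scaled deviation of genes of like signal (0.474). Ferritin genes have many processed pseudogenes, so the FTL probe set may also read related transcripts, and its signal is uncertain to that extent. In iron-responsive regulation of RNA stability and translation, transcript level is only part of the outcome, and protein was not measured. The FTL element begins within the first transcribed bases, in the 5′ untranslated region, and its loop (CAGTGN) is in capitals in this stretch, chr19:48965333-48965358 on the plus strand from RefSeq on GRCh38.p14.
FTL: gtctcttgcttcaaCAGTGTttggac
The pattern CAGTGN, in which N is any base, stands on the gene's strand in 32.1% of all windows. It stands in 5 of the 8 genes with a window, so the match alone marks no element.

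Other genes of iron uptake, storage and export were mostly slightly higher. Of 24 listed, TFRC, FTL and FTH1 included, 22 were named and 16 were above the minimum; 12 of these were higher and 4 lower in the RHOA Y42C array, against 5339 and 6402 of all 11802 genes, and the median was 0.29. None of the 16 was at least 2-fold higher, against 7.46% of all genes. By the deposited values 2 were at least 2-fold lower, near the 9.80% of all genes. CYBRD1, a plasma membrane ferric reductase, had 9.81 with RHOA Y42C and 10.90 with RHOA wild-type (2.13-fold lower). STEAP2, a metalloreductase, had 3.85 with RHOA Y42C, below the minimum, and 5.34 with RHOA wild-type, so it was at least 1.15-fold lower. STEAP3, the endosomal ferric reductase of the transferrin cycle, stood at the upper end with 11.87 with RHOA Y42C and 10.95 with RHOA wild-type (0.92). SLC40A1, the iron exporter ferroportin, had 7.29 with RHOA Y42C and 6.93 with RHOA wild-type, and NCOA4, the receptor that takes ferritin to lysosomes, 11.91 with RHOA Y42C and 11.40 with RHOA wild-type. STEAP1, HFE, CP, HEPH, HAMP and FTMT were below the minimum in both arrays.

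**Figure D3:**
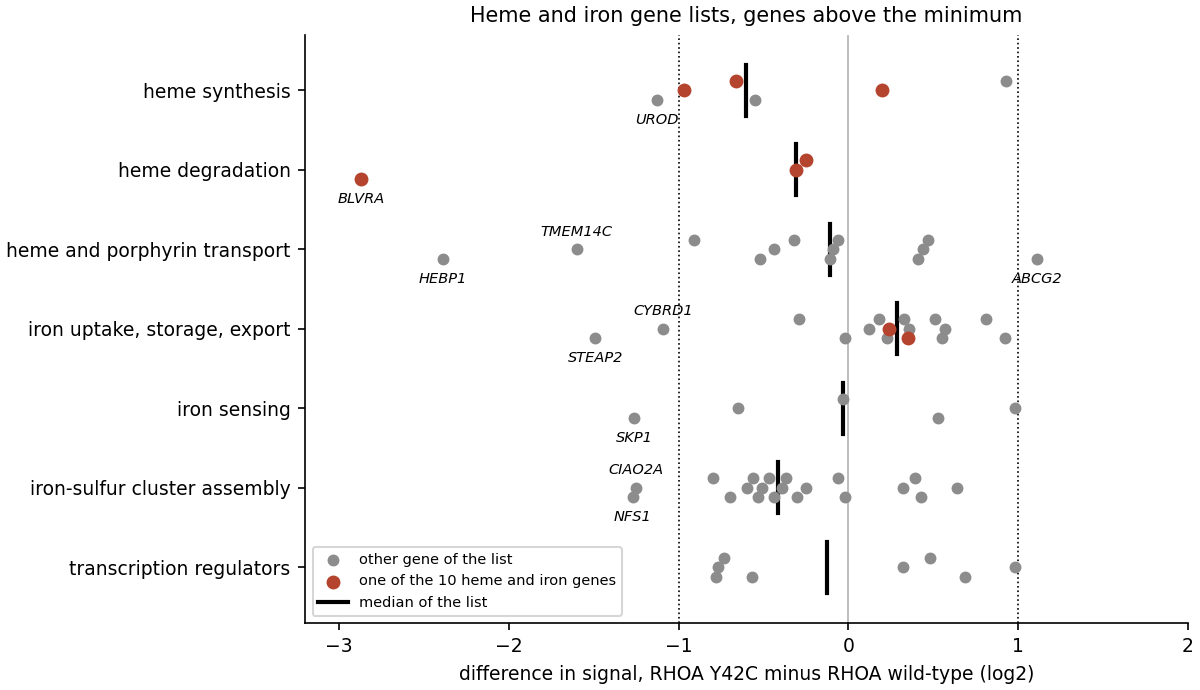
Difference in signal (RHOA Y42C minus RHOA wild-type, log2) of every gene above the minimum in 7 heme and iron lists, 1 point per gene, with the list's median as a black bar and dotted lines at 2-fold. Genes at least 2-fold apart by the deposited values are named; STEAP2 is below the minimum in the RHOA Y42C array, and its fold is a bound of at least 1.15. BLVRA and HEBP1 lie farthest to the left.

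Among 15 carriers and binding proteins of heme and porphyrins, 13 were named and all 13 were above the minimum, with 2 at least 2-fold lower and 1 at least 2-fold higher (median -0.11). These counts lie near the 9.80% and 7.46% of all genes. HEBP1, a heme-binding protein, had 8.13 in the RHOA Y42C array and 10.52 in the RHOA wild-type array, 5.24-fold lower. TMEM14C, which moves a porphyrin precursor into the mitochondrial matrix, had 12.29 with RHOA Y42C and 13.89 with RHOA wild-type, 3.03-fold lower. ABCG2, an exporter of porphyrins and drugs, had 9.05 with RHOA Y42C and 7.94 with RHOA wild-type, 2.16-fold higher. FLVCR1, first known as a heme exporter, lay at 0.44, and ABCB6, a porphyrin transporter, at -0.91.

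Iron-sulfur cluster assembly, the other main use of mitochondrial iron, had 21 of 25 genes named and 20 above the minimum. Of these 16 were lower and 4 higher in the RHOA Y42C array, 2 passed 2-fold on the lower side and 0 on the higher side, with a median of -0.42. Over all genes 54.2% were lower, 9.80% passed 2-fold on the lower side and 7.46% on the higher side, so the 2 of 20 lie at the background. NFS1, the cysteine desulfurase that supplies the sulfur, had 9.89 in the RHOA Y42C array and 11.16 in the RHOA wild-type array (2.41-fold lower), and CIAO2A, a cytosolic assembly factor, had 10.65 with RHOA Y42C and 11.90 with RHOA wild-type (2.38-fold lower). FDX1, a ferredoxin, was the most positive at 0.64. Of the iron-sensing list, all 5 genes named of 6 were above the minimum, with a median of -0.03 that changed sign under 3 other settings. ACO1, the aconitase that becomes iron regulatory protein 1, had 10.21 with RHOA Y42C and 10.86 with RHOA wild-type (-0.65), and FBXL5, the iron-sensing ligase subunit, had 8.98 with RHOA Y42C and 9.01 with RHOA wild-type. SKP1, a general subunit of that ligase family, was the gene at least 2-fold lower, with 13.31 with RHOA Y42C and 14.57 with RHOA wild-type (2.39-fold). HERC2, a ligase that acts on FBXL5, stood at the upper end with 0.98, and 1 gene of this list was at least 2-fold higher once the arrays were centred on their medians.

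Regulators of transcription in this pathway were each less than 2-fold apart. BACH1, a heme-sensing repressor of HMOX1 and the ferritin genes, had 10.48 in the RHOA Y42C array and 9.79 in the RHOA wild-type array (0.69). NFE2L2, which activates those genes and BLVRB, had 11.08 with RHOA Y42C and 10.76 with RHOA wild-type (0.32), and KEAP1, its inhibitor, lay at 0.48. MAFF, a small MAF partner of both, was the most positive of the 8 above the minimum at 0.98, and 1 gene of the list was at least 2-fold higher after centring. NRF1 was the most negative. The list's median of -0.13 had no stable sign and was 0.32 with the array median as minimum. Of 6 genes of bilirubin handling, 2 of 5 named were above the minimum, the export pump ABCC3 (0.81) and the uptake carrier SLCO1B3 (0.18).

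On chromosome 7 the measured genes next to BLVRA differed unevenly, and the nearest on each side were lower as well. MRPS24, a mitochondrial ribosomal protein and the next measured gene, had 9.15 in the RHOA Y42C array and 10.82 in the RHOA wild-type array (3.18-fold lower). COA1, a respiratory chain assembly factor on the other side, had 12.70 with RHOA Y42C and 13.55 with RHOA wild-type (1.80-fold lower). Beyond them STK17A lay at -0.25, MRPL32 at 0.09 and PSMA2 at 0.24 on one side. On the other, URGCP lay at 0.11 and UBE2D4 at 0.06, followed by the pseudogene POLR2J4, which was 2.66-fold lower and whose close relatives may share its probes. HECW1 and SPDYE1 were below the minimum. Of all genes above the minimum, 54.2% were lower to any extent and 9.80% at least 2-fold lower. The part of position in the BLVRA signal was not tested.

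**Figure D4:**
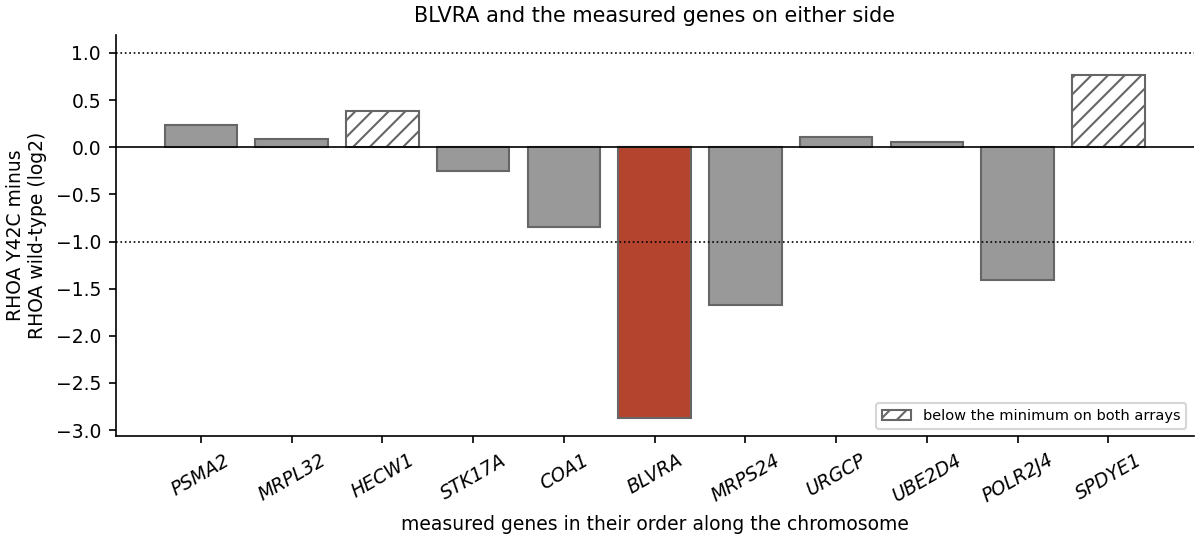
Difference in signal (RHOA Y42C minus RHOA wild-type, log2) of BLVRA and the 5 measured genes on each side, in their order along the chromosome and not to scale, with dotted lines at 2-fold. Hatched bars are genes below the minimum on both arrays. BLVRA, MRPS24 and POLR2J4 are past 2-fold and lower, as are 9.80% of all genes above the minimum. Of the nearest 4 neighbours 3 are below 0, as are 54.2% of all genes above the minimum.

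Over the 2 arrays the genes above both minimums whose values lay nearest to those of BLVRA were TCP11L2, DPYD and SPATA7, at distances of 0.216, 0.234 and 0.269 on the log2 scale. They had 6.67, 6.68 and 6.66 in the RHOA Y42C array and 9.38, 9.25 and 9.15 in the RHOA wild-type array. With 2 points per gene this likeness says only that their signals were close.

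The label of the cells was checked against marker genes. Of 8 epithelial markers 7 were above the minimum, among them the keratin KRT8, at 17.94 in the RHOA Y42C array and 17.96 in the RHOA wild-type array. EPCAM, an epithelial adhesion molecule, had 13.53 with RHOA Y42C and 13.30 with RHOA wild-type. CDH1, E-cadherin, was below the minimum in both, with 3.86 with RHOA Y42C and 3.92 with RHOA wild-type. Of 9 gastric markers CLDN18 and ANXA10 were above the minimum, and TFF1, MUC5AC and GKN1 were not. ANXA10 reached it in the RHOA Y42C array alone, with 5.55 there and 3.78 with RHOA wild-type, so it was at least 1.30-fold higher with RHOA Y42C. Erythroid cells, macrophages and hepatocytes handle much heme and iron. Of 8 erythroid markers named 4 were above the minimum (HBA1, HBA2, HBB and GATA1), ranging over the list between 3.27 and 8.78 with RHOA Y42C and between 3.28 and 8.50 with RHOA wild-type, while ALAS2, KLF1 and SLC4A1 were below it. Of 8 macrophage markers 6 were above it, 3 higher and 3 lower in the RHOA Y42C array. CD14, with 5.67 with RHOA Y42C and 7.45 with RHOA wild-type, was at least 2-fold lower, and CD68 lay at -0.51 and CD163 at -0.35. On the higher side MARCO lay at 0.98 and CSF1R at 0.28. PTPRC was at least 1.16-fold higher, since its 4.61 with RHOA wild-type did not reach the minimum. On the log2 scale the summed signal of the erythroid list was 9.75 with RHOA Y42C and 9.59 with RHOA wild-type. That of the macrophage list was 10.67 with RHOA Y42C and 11.03 with RHOA wild-type, and that of the hepatocyte list, with 5 of 10 above the minimum, was 8.58 with RHOA Y42C and 8.77 with RHOA wild-type. The gastric list summed to 7.95 with RHOA Y42C and 7.50 with RHOA wild-type, and the epithelial list to 19.40 with RHOA Y42C and 19.38 with RHOA wild-type. The part of such cells in the BLVRA difference was not tested.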

How the data were processed

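The deposited table gives 1 value for each of 21448 probe sets and 2 arrays, between 2.23 and 18.16, read as log2 signal; no source used here states the base. The submitters' processing notes name Affymetrix Expression Console. Its role, its version, and how signals were background-corrected, summarised and normalized were not given in the sources used here. Array medians were 6.36 for RHOA Y42C and 6.42 for RHOA wild-type, and values were used as deposited. The platform annotation gives 1 gene symbol for 17709 probe sets and several for 0, and 3739 carry no name here. By Entrez identifier 17709 of 17709 were found in the gene table (GRCh38.p14), which served for names, gene order and the span of BLVRA; the files name no build. Probe sets of 1 gene were averaged (20 genes). Precision is limited by the number of arrays.

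Members and lists were chosen with earlier results of these data known. Named are all members, the genes of each list at least 2-fold apart with its extremes, the neighbours of BLVRA and the 3 genes nearest to it, and further list genes chosen after their values were seen. Where 1 array was below its minimum, the fold is a bound against that minimum. The counting was tested on simulated data with less spread than the genes here, which checks the code and not whether the counts would recur. Calculations ran in Python 3.11.15 with NumPy 2.4.6, pandas 2.3.3 and, for the lowess trend, statsmodels 0.14.6; plots were drawn with matplotlib 3.10.9.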

Additional observations from a re-analysis of the deposited data

How the results depend on the processing

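The differences of the 9 measured genes, and the counts and medians of the heme and iron lists and of all genes, were recomputed with the arrays centred, quantile normalized or freed of a trend on level (lowess, span 0.3), with other expression minimums or none, with a constant of 16 added to the linear signal, and with the brightest probe set; the counts were also taken at 1.5-fold and 4-fold. Other single genes, neighbours, ranks and markers were not recomputed. A further setting, chosen after seeing the data, raised values below the minimum to the minimum. BLVRA lay between -2.87 and -2.66 in all of them, CPOX between -0.97 and -0.85, and FECH between -0.66 and -0.54, and of the 9 measured genes HMOX1, below the minimum, alone changed sign (-0.06 to 0.12). The median of the genes above the minimum stayed between -0.28 and -0.18. Under all settings at 2-fold and at 4-fold 1 of them was lower, BLVRA through its choice, and 0 higher. At 1.5-fold 3 were lower, BLVRA included. Of the 89 other heme and iron genes listed, 65 were above the minimum. Of these 65, 1 was higher and 8 lower at 2-fold, against 7.46% and 9.80% of all genes. The number higher was 3 after centring and after quantile normalization, 5 with the trend removed and 2 with no minimum. At 1.5-fold 9 of the 65 were higher and 16 lower, against 17.8% and 23.4% of all genes. At 4-fold 0 of the 65 were higher and 1 lower. All 11802 genes above the minimum gave 881 higher and 1157 lower at 2-fold, 2106 and 2758 at 1.5-fold, and 118 and 69 at 4-fold. The median of these other genes (-0.09) was 0.01 with the trend removed. No paired analysis was possible because each line has 1 array, and for the same reason no replicate could be left out.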

Other observations

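Proteins that use heme and enzymes that use iron were looked at as lists added after the values of the 10 genes were seen. Of 36 heme proteins and their reductases, 34 were named and 22 were above the minimum, with 3 at least 2-fold higher, 2 at least 2-fold lower and a median of -0.20. These counts lie near the shares of all genes past 2-fold, 7.46% on the higher and 9.80% on the lower side. CYP2S1, a cytochrome P450 of epithelia, had 13.04 in the RHOA Y42C array and 11.39 in the RHOA wild-type array (3.14-fold higher). CYP1A1, the classic target of the aryl hydrocarbon receptor, was at least 2.28-fold higher, since its 5.11 with RHOA wild-type did not reach the minimum, and MB, myoglobin, had 7.20 with RHOA Y42C and 6.01 with RHOA wild-type. NR1D2, a heme-binding nuclear receptor of the circadian clock, had 9.07 with RHOA Y42C and 10.57 with RHOA wild-type (2.83-fold lower), and CYB5R3, a cytochrome b5 reductase, had 11.02 with RHOA Y42C and 12.49 with RHOA wild-type (2.77-fold lower). The mitochondrial cytochromes CYCS and CYC1 lay at -0.20 and -0.19, and catalase (CAT) at -0.29.

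Of 37 iron-dependent dioxygenases, which use 2-oxoglutarate, 36 were named and 34 were above the minimum, 17 of them higher and 17 lower. The 3 and 2 past 2-fold named next lie near or below the same shares of all genes. At least 2-fold higher were TET3, a DNA demethylase (8.23 with RHOA Y42C and 6.19 with RHOA wild-type, 4.11-fold), and the histone demethylases KDM5C and KDM3B (2.20-fold and 2.08-fold). At least 2-fold lower were KDM5B (2.38-fold) and ASPH, an aspartyl hydroxylase (2.28-fold). KDM5B and KDM5C, which act on the same histone mark, thus lay on opposite sides, and KDM5A of the same family was lower at -0.61.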
